A study of Homo sapiens with 12 samples.

Results

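The comparison described here is that of RAC1 knockout lines with RAC1-positive lines of DU145, a human prostate carcinoma cell line, within the first of 2 batches of RNA sequencing libraries. Batch 1 held 6 of the 12 libraries of the series, 3 on each side. The RAC1-positive side was the parental line and sgNTC clones 1 and 2, which both received the non-targeting guide sgNTC_1. The knockout side was sgRAC1 clone 1, made with guide sgRAC1_1, and sgRAC1 clones 2 and 3, made with guide sgRAC1_2. Genes were chosen by their level alone: a gene entered when its mean was at least 1 TPM (transcript abundance scaled by gene length and library total) on either side, and 17508 of the 56832 genes listed did. Of these, 14273 reached that level on both sides, 2103 through the knockout lines only and 1132 through the RAC1-positive lines only. All clones grew from single cells after transfection with complexes of guide RNA and Cas9, and all lines were kept in RPMI medium with 10% FBS. No other treatment is labelled, and each line is a single library in batch 1, so the spread on each side is that between lines, and the effect of the genotype cannot be told apart from differences between the individual clones. The sources used here do not say how libraries were placed within a batch, so any handling that differed between the sides of a batch cannot be told apart from genotype either. In bulk RNA, fewer cells of a kind and less RNA per cell cannot be told apart.

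RAC1 is a small GTPase that cycles between a GDP-bound and a GTP-bound form. Exchange factors such as the VAV proteins load it with GTP downstream of receptors including EGFR, and active RAC1 drives actin polymerisation in lamellipodia through the WAVE complex and the Arp2/3 complex. The study's title places the work in the question of how VAV2 links EGFR to RAC1 in prostate cancer cells. Batch 2 holds further libraries of the same 6 lines. Its values are given beside those of batch 1 for comparison. Since the lines are shared, they do not separate genotype from clone.

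One library of batch 1 stood apart. sgNTC clone 2 had 13608 genes listed above 0, against 20604 to 23627 in the other 5 libraries, and 27.3% of the genes kept were at 0 in it, against 5.73% to 9.22%. Its median correlation with the other libraries of the batch was 0.873, against 0.931 to 0.945. The smallest steps in its values were also coarse: the most frequent value above 0 among 107-base U6 RNA genes was 47.8 TPM in it and 2.73 to 5.73 TPM in the other 5 libraries. Values without it are given beside several results that it moved. The tissue labels were checked on marker genes: the epithelial markers KRT8, KRT18, KRT19, EPCAM and CDH1 summed to 372 to 575 TPM in the knockout lines and 273 to 669 TPM in the RAC1-positive lines. KLK3 and TMPRSS2, genes of the secretory prostate epithelium, were listed at 0 in every library of batch 1. Of 5 leukocyte markers, PTPRC and CD3E were at 0 throughout, and the summed level was 1.64 to 7.90 TPM in the knockout lines and 0 to 1.08 TPM in the others.

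RAC1 itself was the gene the labels predict to differ. Its level was 171, 188 and 202 TPM in the parental line and sgNTC clones 1 and 2, and 47.5, 59.2 and 39.6 TPM in sgRAC1 clones 1, 2 and 3; below, 6 values are given in this order of lines. Every knockout library was thus far below every RAC1-positive library, with no overlap, although transcript remained in all 3 clones. The difference was -1.93 on the log2(TPM + 1) scale (SE 0.18, 95% interval -2.35 to -1.52), with a limma adjusted p of 0.071 over all 17508 genes. By exact permutation of the 6 libraries (two-sided) p was 0.1, which is the lower bound for groups of 3. In batch 2 the difference was -1.84 (limma adjusted p = 0.0453). The adjusted p in batch 1 was 0.152 without sgNTC clone 2, 0.00411 when all 12 libraries shared 1 estimate of the spread, and 0.0197 when only the 10278 protein-coding genes were tested, an alternative added after the data were seen. The 12-library fit counts the libraries of a line as nearly independent (within-line correlation 0.0356).

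Small GTPases related to RAC1 differed far less. RAC2, the close paralog best known from blood cells, was 3.34, 4.28 and 2.02 TPM in the RAC1-positive lines and 6.31, 5.65 and 8.24 TPM in the knockout lines, so the sides did not overlap (difference 0.90, SE 0.30, limma adjusted p = 0.633). RHOA, the GTPase of stress fibres, was 495, 513 and 495 TPM against 606, 566 and 640 TPM (0.27, SE 0.10, adjusted p = 0.683), and RHOC was 38.9, 28.3 and 35.6 TPM against 50.2, 43.8 and 46.8 TPM (0.45, adjusted p = 0.682). All 3 lay higher in every knockout library, and their batch 2 differences were 0.80, 0.27 and 0.31. CDC42, the GTPase of filopodia and polarity, went the other way in batch 1 and was wholly higher in batch 2 (0.25). In batch 1 it was 239, 242 and 269 TPM in the RAC1-positive lines and 192, 177 and 201 TPM in the knockout lines (-0.39, SE 0.12, adjusted p = 0.567). RHOG, an activator upstream of RAC1, overlapped between the sides at 24.4, 14.9 and 14.4 against 19.2, 19.9 and 17.2 TPM. RAC3, the remaining paralog, was under the level filter, at under 1 TPM on both sides.

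**Figure D1:**
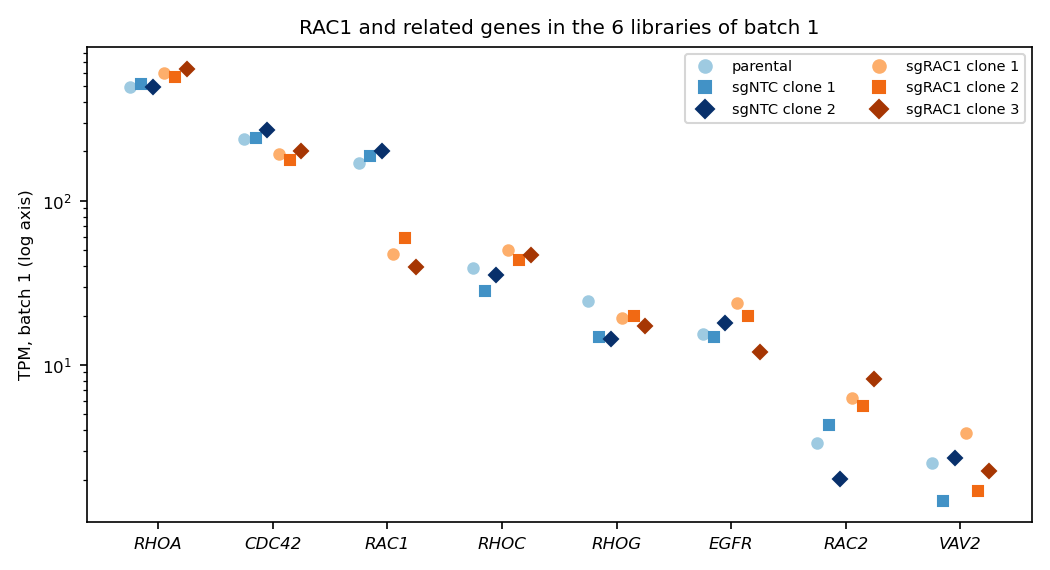
TPM on a log axis of RHOA, CDC42, RAC1, RHOC, RHOG, EGFR, RAC2 and VAV2 in the 6 libraries of batch 1, 1 symbol per line (blue: RAC1-positive, orange: knockout). RAC1 at 39.6 to 59.2 TPM in the knockout lines lies clear of 171 to 202 TPM in the others, while RHOG, EGFR and VAV2 overlap.

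Genes that act beside RAC1 showed small differences. Over all genes kept, 14.4% had sides that did not overlap (7.65% higher and 6.76% lower). VAV2, the exchange factor of the study's title, was 2.52, 1.48 and 2.70 TPM against 3.85, 1.71 and 2.27 TPM (0.14, 95% interval -0.70 to 0.97, limma adjusted p = 0.901), and VAV3 was listed at 0 in all 6 libraries. EGFR was 15.5, 14.9 and 18.0 TPM against 23.9, 19.8 and 12 TPM (0.15, adjusted p = 0.86). Both sides overlapped for these genes, and the sign of the VAV2, EGFR and RHOG differences turned when single libraries were left out. Of 28 Rac exchange factors 14 were kept, with a median difference of 0.04 (0.09 without sgNTC clone 2). SOS2 (0.40) and SOS1 (0.36), which also load RAS, were the only members higher in every knockout library, and FARP2 (-0.18) the only member lower. Of the 21 Rac effector, WAVE and Arp2/3 genes kept (median -0.05; -0.0089 without sgNTC clone 2), 4 were higher without overlap and 2 lower. The Arp2/3 subunit ARPC5 was 186, 192 and 212 TPM against 259, 232 and 250 TPM (0.33, SE 0.12, adjusted p = 0.641), the WAVE complex subunit BRK1 differed by 0.23 and the RAC1 effector kinase PAK1 by 0.32, while WASF1 (-0.45) and WASF3 (-0.58), which encode WAVE proteins, were lower. Among 11 EGFR family genes and ligands kept, betacellulin (BTC) was 4.35, 3.42 and 5.45 against 6.48, 7.73 and 7.41 TPM (0.62, adjusted p = 0.691), 1 of 2 members higher without overlap. Of 10 kept GAPs and GDIs, which switch off or sequester these GTPases, 3 were higher and 1 lower without overlap (median -0.02; 0.09 without sgNTC clone 2).

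Across all genes the batch 1 test made no call. limma called 0% of the 17508 genes at an adjusted p under 0.05, with 1250 genes (7.14%) at an unadjusted p under 0.05, with 689 (3.94%) of them above and 561 (3.2%) below the RAC1-positive level. The smallest adjusted p was 0.071. Values of the 3 knockout libraries lay wholly above those of the 3 RAC1-positive libraries for 1339 genes (7.65%) and wholly below them for 1184 (6.76%). The balance of directions changed with the level of the genes and the scaling. Among genes kept on both sides 929 lay above and 1087 below, and with a mean of at least 5 TPM the unadjusted test gave 384 higher and 494 lower. With median-of-ratios scaling 1519 genes lay wholly above and 965 wholly below, and the unadjusted test gave 773 higher and 470 lower. The same test on batch 2 called 28 genes (0.16%), 22 higher and 6 lower, with 2517 (14.4%) at an unadjusted p under 0.05, and there 2169 genes (12.4%) lay wholly above and 1326 (7.57%) wholly below. The median size of the difference, sign aside, was 0.30 in batch 1 and 0.23 in batch 2. When all 12 libraries shared 1 estimate of the spread, 8 genes passed in batch 1 (TSPAN7, LYN and SAT1 higher, and RAC1, MCM4, MT-TN, DIMT1 and FJX1 lower), and with protein-coding genes only RAC1, DIMT1 and TSPAN7 passed. The 12-library fit adds no lines, and with a within-line correlation of 0.0356 it counts the libraries of a line as nearly independent. TSPAN7 was kept only through the knockout lines, where it is high.

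Among the genes with the smallest p on the higher side, TSPAN7, a tetraspanin of the plasma membrane, was 1.501, 0.968 and 0 TPM in the RAC1-positive lines and 14.2, 18.0 and 23.5 TPM in the knockout lines (difference 3.50, SE 0.40, limma adjusted p = 0.152). LYN, a Src family kinase, was 15.1, 17.5 and 15.7 TPM against 31.0, 34.3 and 36.4 TPM (1.03, SE 0.16, adjusted p = 0.337). SAT1, which acetylates spermidine and spermine in polyamine breakdown, was 183, 128 and 162 TPM against 387, 403 and 694 TPM (1.61, SE 0.26, adjusted p = 0.349). For each of these genes the lowest knockout library was above the highest RAC1-positive library by a wide margin, and batch 2 gave differences of 3.20, 1.13 and 1.79. MPZL2, an epithelial adhesion protein, differed by 1.89 in batch 1 and 2.40 in batch 2. HIST2H2AA4, a histone H2A gene whose reads cannot be told apart with certainty from those of its near-identical copy HIST2H2AA3, differed by 1.94.

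The other genes named on that side were short or unplaced non-coding genes listed at 0 in all RAC1-positive libraries. RNU6-18P and RNU6-703P, copies of the U6 spliceosomal RNA, had the same values, 4.26, 5.35 and 5.73 TPM in the 3 knockout lines, and each is the most frequent value above 0 of 107-base U6 genes in its library. RNU7-84P (14.7, 9.23 and 19.8 TPM), RNU6-17P and CH17-219N22.1 had the same pattern. These genes were kept only through the knockout lines, so their direction follows from the choice of genes. In sgNTC clone 2 the most frequent value above 0 of 107-base U6 genes was 47.8 TPM, so a 0 there says little at these levels. No fold is given for them. In batch 2 none of these genes kept its sides apart. Only CH17-13I23.3 of this kind was above 0 in all lines, at 43.9, 45.2 and 48.0 against 87.8, 83.3 and 89.3 TPM (0.91, limma adjusted p = 0.228), and its batch 2 difference was -0.15.

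On the lower side, DIMT1, a methyltransferase of 18S ribosomal RNA, was 112, 118 and 93.1 TPM in the RAC1-positive lines and 39.8, 36.3 and 35.0 TPM in the knockout lines (-1.51, SE 0.15, limma adjusted p = 0.088). PLK2, a kinase and p53 target, was 81.2, 55.6 and 48.3 TPM against 19.0, 12.4 and 15.2 TPM (-1.91, SE 0.25, adjusted p = 0.219). MCM4, of the MCM helicase, was 138, 127 and 100 TPM against 51.1, 52.0 and 56.0 TPM (-1.17, SE 0.16, adjusted p = 0.219). Each of the 3 was lower in every knockout library of batch 2 as well, but by less: -0.80 for DIMT1, -0.81 for PLK2 and -0.19 for MCM4. SMS, the spermine synthase, was 487, 508 and 537 TPM against 279, 328 and 274 TPM (-0.80, SE 0.12, adjusted p = 0.293; -0.42 in batch 2). IMP4, a ribosomal RNA processing factor (-1.01), the YAP target FJX1 (-1.27) and KLHL9, an adaptor of a ubiquitin ligase (-1.30), followed, with batch 2 differences of -0.43, -0.64 and -0.23. EIF1AP1, a pseudogene whose reads may be shared with its parent gene, differed by -1.22 and by -0.16 in batch 2.

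RAC1 lies on chromosome 7 (GRCh38, 6374523 to 6403977, plus strand), and genes around it were lower too. This stretch was looked at after its values had been seen. Of 40 protein-coding genes kept whose annotated start is under 8 Mb on that chromosome, RAC1 aside, 37 had a lower mean in the knockout lines. For 17 of them every knockout library was below every RAC1-positive library and for 0 above, beside 871 of 9794 protein-coding genes that were wholly below on the other chromosomes. Their median difference was -0.42 (-0.39 without sgNTC clone 2), against -0.03 on the other chromosomes. It was present in each clone: the median relative to the RAC1-positive mean was -0.48, -0.38 and -0.52 in sgRAC1 clones 1, 2 and 3, and 0.05, -0.11 and 0.08 in the parental line and sgNTC clones 1 and 2. SUN1, a nuclear envelope protein, was 24.5, 27.2 and 22.1 TPM against 13.3, 9.99 and 15.4 TPM (-0.90, SE 0.21, limma adjusted p = 0.49). COX19, a mitochondrial copper protein, was 16.5, 16.1 and 18.5 TPM against 9.63, 11.2 and 6.75 TPM (-0.85), and RNF216, a ubiquitin ligase, was 22.1, 21.7 and 34.2 TPM against 13.8, 13.9 and 13.4 TPM (-0.85). FSCN1, which encodes the actin bundling protein fascin, differed by -0.84.

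In the same stretch ACTB, the beta-actin gene often used as a reference, was 4958 TPM in the parental line, 2314 and 1543 TPM in the sgNTC clones and 1346, 1483 and 1548 TPM in the knockout lines. The parental line was far above all clones, and sgNTC clone 2 overlapped with the knockout lines. The 52 kept genes that start between 8 and 30 Mb had a median of -0.15, or -0.0014 without sgNTC clone 2. In batch 2 the medians were -0.30 for the first stretch, with 18 genes wholly lower, and 0.08 for the second. RAC1's own difference of -1.93 was larger in size than that of every other gene of the first stretch.

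**Figure D2:**
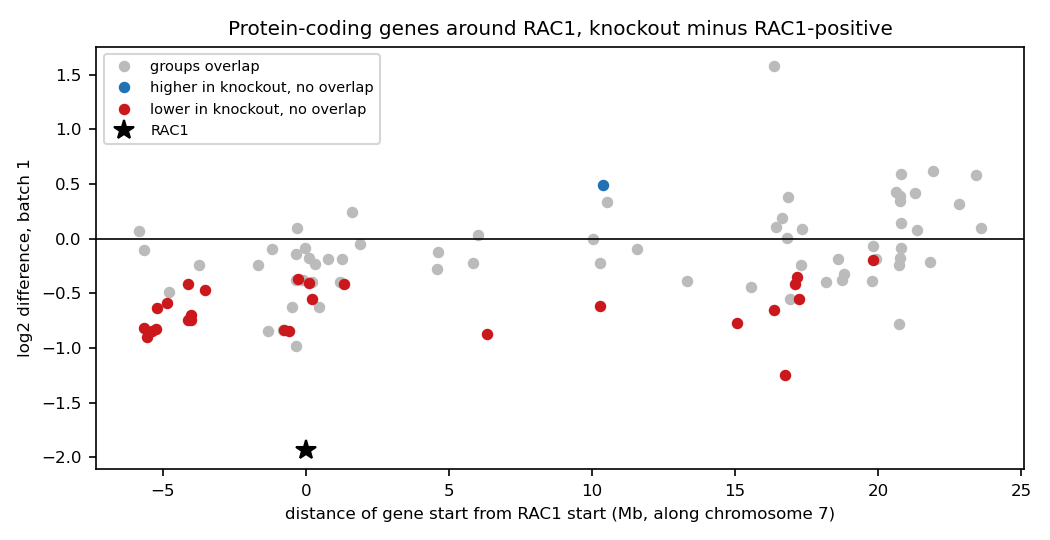
Difference between knockout and RAC1-positive lines in batch 1 (log2(TPM + 1)) for kept protein-coding genes of chromosome 7 that start under 30 Mb, against the distance of their start from that of RAC1. Genes before RAC1 and just after it lie mostly below 0 (red: all knockout libraries below all RAC1-positive libraries), and RAC1 (star) is lowest at -1.93.

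Genes of DNA replication leaned lower in batch 1. Their products license origins, unwind DNA and copy it, and many are driven by E2F factors at the start of S phase. Of 42 members, all kept, 33 had a lower mean in the knockout lines, 9 were lower without overlap and 0 higher without overlap (6.76% and 7.65% over all genes); the median was -0.22, beside 0.03 over all genes, and no member passed the test. GINS2, part of the same helicase as MCM4, was 72.3, 85.2 and 94.0 TPM against 56.9, 53.9 and 51.7 TPM (-0.61, SE 0.15, limma adjusted p = 0.49). CDC45, the third helicase component, was 79.6, 93.9 and 111 TPM against 68.9, 69.6 and 55.8 TPM (-0.54, adjusted p = 0.632). POLA2 (-0.70) and PRIM1 (-0.54), subunits of the primase complex, were also lower in every knockout library, whereas MCM2 (0.59, or -0.03 without sgNTC clone 2), MCM6 (0.06) and PCNA (-0.09) overlapped. The lean was not even across clones: the median of the list was -0.17, -0.10 and -0.40 in sgRAC1 clones 1, 2 and 3 and -0.05 to 0.05 in the RAC1-positive lines. In batch 2 the median was -0.04, with 5 members lower and 1 higher without overlap (7.57% and 12.4% over all genes).

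To show what the promoters of these genes hold, windows of 2 members that were lower without overlap are printed from RefSeq (GRCh38.p14), with a match to the E2F-type motif TTTNNCGC, searched on both strands, in capitals. The GINS2 window is chr16:85688955-85689010 on the minus strand and the POLA2 window chr11:65261884-65261941 on the plus strand.
GINS2: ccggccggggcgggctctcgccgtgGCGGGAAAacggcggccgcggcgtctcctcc
POLA2: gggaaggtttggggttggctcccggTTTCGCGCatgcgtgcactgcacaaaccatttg
Of the 36 replication genes matched to a promoter by symbol, 14 (38.9%) held the motif in the searched bases, against 9.61% of the 8889 kept genes that matched and 5.93% of all 27305 promoters of the table. A match describes the letters only.

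Neighbouring growth programmes also leaned lower. Of 27 nucleotide synthesis genes 24 had a lower mean (median -0.26, and -0.12 in batch 2). Without overlap 6 were lower and 0 higher, against 6.76% and 7.65% of all genes. ADSS, which makes the precursor of AMP, was 92.5, 72.4 and 57.2 TPM against 40.3, 36.7 and 35.0 TPM (-0.94, limma adjusted p = 0.443). Of 37 mitosis genes 31 had a lower mean (median -0.16, or -0.08 without sgNTC clone 2). Without overlap 5 were lower and 0 higher, against 6.76% and 7.65% of all genes. In batch 2 the median was -0.01, and the counts leaned the other way. There 6 members were higher and 1 lower without overlap, against 12.4% and 7.57% of all genes. TPX2, a spindle assembly factor, was 362, 394 and 367 TPM against 257, 257 and 269 TPM (-0.52, SE 0.10, adjusted p = 0.402; -0.03 in batch 2). The mitosis median was lowest in sgRAC1 clone 3 (-0.42), but the parental line at -0.21 was below sgRAC1 clones 1 (-0.04) and 2 (0.00). CDKN1A, the p21 inhibitor of cyclin-dependent kinases, was 23.1, 19.9 and 13.4 TPM against 38.1, 27.6 and 45.9 TPM (0.95, adjusted p = 0.562; 0.64 in batch 2).

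Ribosome biogenesis genes, which make and process ribosomal RNA in the nucleolus, had 41 of 50 kept members with a lower mean. The list median was -0.27, or -0.31 without sgNTC clone 2, and -0.18 in batch 2. Without overlap 10 were lower and 0 higher, against 6.76% and 7.65% of all genes. Beside DIMT1 the 10 lower genes included UTP18, of the small-subunit processome, at 28.2, 28.3 and 47.0 against 19.8, 19.8 and 12.9 TPM (-0.93, limma adjusted p = 0.567). NOP16 differed by -0.61 and RRP1 by -0.75. For the list the median reached -0.60 in sgRAC1 clone 3, -0.17 in the first clone and -0.05 in the second, which was inside the range of the RAC1-positive lines (-0.06 to 0.10). The 78 ribosomal protein genes had a median of -0.04, with 47 lower by their means. Without overlap 11 were lower and 1 higher, against 6.76% and 7.65% of all genes. Without sgNTC clone 2 the list median was -0.11 with 65 lower. In batch 2 the list median was -0.17 with 40 wholly lower, against 7.57% of all genes. The 66 mitochondrial ribosomal protein genes had a median of -0.16. Of 26 chaperonin and heat shock genes 21 had a lower mean; HSPA4, a cytosolic co-chaperone, was 119, 110 and 72.4 TPM against 38.9, 45.2 and 46.8 TPM (-1.16, adjusted p = 0.375; -0.43 in batch 2). HSPA5, the main chaperone of the endoplasmic reticulum, was 1734, 1759 and 1803 TPM against 1384, 1359 and 1120 TPM (-0.46, SE 0.12, adjusted p = 0.493), and its batch 2 difference was -0.05.

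Interferon stimulated genes were the list with the largest median on the higher side. They encode antiviral proteins and sensors and are switched on by factors that bind a repeat of GAAA in their promoters. Of 30 members kept, 25 had a higher mean in the knockout lines. Without overlap 14 were higher and 1 lower, against 7.65% and 6.76% of all genes. At a limma unadjusted p under 0.05 there were 13 higher, against 3.94% of all genes, and none passed the adjusted test. The level filter was passed on 1 side only by 6 members, which lean to that side by the choice of genes. The median was 0.93 (0.73 without sgNTC clone 2) and 0.74 in batch 2. IFIT3 was 4.53, 8.67 and 3.87 TPM against 17.6, 19.7 and 44.4 TPM (2.02, SE 0.42, limma adjusted p = 0.428), and DDX58, the RNA sensor RIG-I, was 4.63, 5.81 and 4.70 TPM against 11.1, 12.4 and 12.3 TPM (1.10, SE 0.20, adjusted p = 0.375). ISG15, a ubiquitin-like modifier, was 52.4, 63.3 and 48.9 TPM against 119, 101 and 211 TPM (1.31, adjusted p = 0.451). Every knockout library was above every RAC1-positive library for these genes. By clone, the list median was 0.61, 0.50 and 1.27 in sgRAC1 clones 1, 2 and 3, so clone 3 stood highest.

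Genes of antigen presentation by MHC class I followed the same order. Of 20 kept, 1 of them through 1 side only, 19 had a higher mean (median 0.51, and 0.49 in batch 2). Without overlap 8 were higher and 0 lower, against 7.65% and 6.76% of all genes. The clone medians were 0.33, 0.26 and 0.96. PSMB8, an immunoproteasome subunit, was 20.5, 15.9 and 20.4 TPM against 44.6, 41.4 and 83.8 TPM (1.47, SE 0.29, limma adjusted p = 0.402). B2M, the invariant light chain, was 899, 877 and 1067 TPM against 1215, 1190 and 1675 TPM (0.51, SE 0.17, adjusted p = 0.632). HLA-B and HLA-C, which share sequence so that reads may be split between them, differed by 0.86 and 1.125. The leukocyte marker sum was also higher in each knockout line than in any RAC1-positive line, through CD79A (0.910, 1.14 and 3.67 TPM against 0) and CD14 (4.23 TPM in sgRAC1 clone 3); with PTPRC and CD3E at 0 its part in these values was not tested.

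Windows of the promoters of 3 members that were higher without overlap are given next, from RefSeq (GRCh38.p14). The interferon motif (GAAA, any 2 bases, GAAA) was searched on both strands, and the match nearest the gene start is in capitals. Each of these promoters held 2 matches. The windows lie at chr10:89327850-89327909 (IFIT3, plus strand), chr1:1013365-1013424 (ISG15, plus strand) and chr15:44711354-44711413 (B2M, plus strand).
IFIT3: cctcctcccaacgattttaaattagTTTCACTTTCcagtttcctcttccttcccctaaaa
ISG15: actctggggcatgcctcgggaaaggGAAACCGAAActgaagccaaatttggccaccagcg
B2M: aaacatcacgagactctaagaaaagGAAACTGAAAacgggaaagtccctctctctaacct
The motif was present in 15 of 24 interferon list promoters (62.5%) and 7 of 17 antigen presentation promoters (41.2%), and in 2.34% of kept genes with a promoter and 3.07% of the whole table.

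Histone genes of the HIST clusters had a median of 0.63 (0.80 without sgNTC clone 2; 0.62 in batch 2). Of 26 kept, 2 of them through 1 side only, 21 had a higher mean. Without overlap 7 were higher and 2 lower, against 7.65% and 6.76% of all genes. HIST1H1C, a linker histone, was 386, 280 and 422 TPM against 894, 507 and 1148 TPM (1.17, SE 0.31, limma adjusted p = 0.546), and HIST1H4H was 20.1, 15.9 and 18.9 TPM against 56.7, 36.0 and 59.3 TPM (1.39, SE 0.23, adjusted p = 0.349). HIST1H1E, another linker histone, was the clearest exception at 98.3, 112 and 109 against 65.3, 60.7 and 65.9 TPM (-0.72, SE 0.13, adjusted p = 0.364). The list median was 0.88 and 0.98 in sgRAC1 clones 1 and 3 and 0.31 in clone 2.

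**Figure D3:**
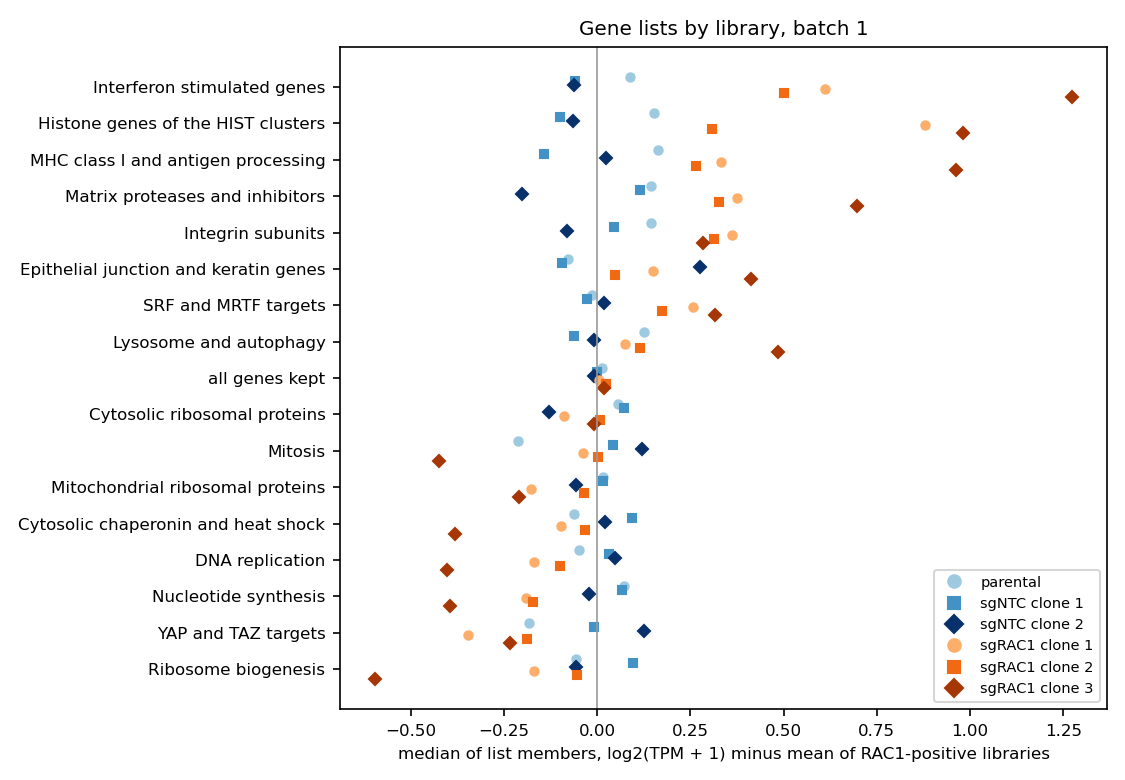
Median of the members of 16 gene lists and of all genes kept, in each library of batch 1, on the log2(TPM + 1) scale relative to the mean of the RAC1-positive libraries (blue: RAC1-positive lines, orange: knockout clones). Interferon genes are at 0.50 to 1.27 in the knockout clones, and sgRAC1 clone 3 is the lowest library for ribosome biogenesis at -0.60.

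Targets of SRF with its MRTF cofactors, which respond to actin assembly, had 21 of 28 kept members with a higher mean. The list median was 0.26 in both batches. Without overlap 10 were higher and 1 lower, against 7.65% and 6.76% of all genes. MYL12A, a myosin light chain, was 958, 969 and 1097 TPM against 1537, 1340 and 1355 TPM (0.48, SE 0.11, limma adjusted p = 0.49), and vinculin (VCL) was 45.9, 50.0 and 61.4 TPM against 96.4, 65.6 and 81.0 TPM (0.61, adjusted p = 0.613). TAGLN was 1.57, 3.07 and 0 TPM against 4.66, 10.4 and 15.97 TPM (2.24, or 1.67 without sgNTC clone 2). Targets of YAP and TAZ, the Hippo pathway cofactors, had 17 of 23 kept members with a lower mean. Without overlap 6 were lower and 2 higher, against 6.76% and 7.65% of all genes. The list median was -0.27, but -0.01 without sgNTC clone 2, and -0.21 in batch 2. CTGF was 25.1, 38.6 and 24.1 TPM against 16.8, 14.2 and 9.18 TPM (-1.08, SE 0.29, adjusted p = 0.533), and the angiomotin AMOTL2 was 24.0, 23.5 and 28.2 TPM against 14.1, 15.7 and 16.3 TPM (-0.68, adjusted p = 0.493).

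All 9 integrin subunits kept, 1 of them through 1 side only, had a higher mean in the knockout lines. ITGA2 and ITGA3 were higher without overlap, against 7.65% of all genes. The list median was 0.41, or 0.27 without sgNTC clone 2, and 0.40 in batch 2. ITGA2, a collagen receptor chain, was 5.76, 5.10 and 4.53 TPM against 22.8, 18.2 and 6.44 TPM (1.30, SE 0.44, limma adjusted p = 0.635), so sgRAC1 clone 3 was close to the RAC1-positive lines. The 17 laminin, collagen and matrix genes kept had no common direction, with 9 higher, 8 lower and a median of 0.0023. LAMB1, a laminin chain, was 9.86, 14.7 and 13.2 TPM against 30.3, 27.2 and 23.6 TPM (1.05, SE 0.21, adjusted p = 0.402), while thrombospondin 1 (THBS1) was 35.4, 38.9 and 66.5 TPM against 24.3, 21.3 and 16.9 TPM (-1.09, adjusted p = 0.493). Of 26 epithelial junction and keratin genes 7 were higher and 1 lower without overlap, against 7.65% and 6.76% of all genes. Their median difference was 0.32, and 0.37 in batch 2. By library the sides overlapped: the list median was 0.28 in sgNTC clone 2 and 0.15, 0.05 and 0.41 in sgRAC1 clones 1, 2 and 3. P-cadherin (CDH3) was 16.5, 8.98 and 24.6 TPM against 45.4, 40.6 and 84.5 TPM (1.73, adjusted p = 0.49) and E-cadherin (CDH1) 3.26, 3.70 and 4.97 TPM against 12.3, 7.04 and 12.3 TPM (1.19, adjusted p = 0.492). SERPINB5, the protease inhibitor maspin, split the clones: it was 2.15, 0.306 and 1.30 TPM in the RAC1-positive lines, 1.27 TPM in sgRAC1 clone 1 and 18.9 and 30.5 TPM in clones 2 and 3, which share a guide.

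Among stress and metabolic genes the differences were scattered. PSAP, the precursor of lysosomal saposins, was 695, 545 and 635 TPM against 825, 912 and 1249 TPM (0.65, SE 0.18, limma adjusted p = 0.562), and NPC2, a lysosomal cholesterol carrier, was 110, 114 and 52.1 TPM against 194, 158 and 219 TPM (1.11, or 0.75 without sgNTC clone 2). Lysosome genes had a median of 0.18 in batch 1 and 0.39 in batch 2. Cholesterol synthesis genes had 0 of 24 members without overlap in batch 1 (median 0.13, or 0.08 without sgNTC clone 2), against 14.4% of all genes. In batch 2, 12 of 24 were higher without overlap (median 0.38), against 12.4% of all genes. Of 35 NRF2 target genes kept, 3 of them through 1 side only, 6 were higher and 3 lower without overlap, against 7.65% and 6.76% of all genes. One of them, the glutathione peroxidase GPX2, was listed at 0 in all RAC1-positive libraries and at 3.35, 1.91 and 9.41 TPM in the knockout lines. GPX2 was thus kept only through the knockout lines, where it is high. GSTP1, a glutathione transferase, was 69.8, 39.7 and 64.2 TPM against 45.8, 13.5 and 2.25 TPM, a graded range in which clone 1 overlapped with the RAC1-positive lines (-2.14, SE 0.88, adjusted p = 0.695). CRY1, a clock repressor, was 8.65, 11.2 and 13.1 TPM against 4.51, 2.83 and 3.999 TPM (-1.33, SE 0.26, adjusted p = 0.402; -0.47 in batch 2).

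Transfer RNA genes of the mitochondrial genome gave the most unequal result between the batches. The mitochondrial genome is transcribed from both strands as long precursors from which tRNAs are cut, and MT-TA, MT-TN, MT-TC and MT-TY lie side by side on the minus strand. These genes were grouped after their values had been seen. Their sequences are shown because this cluster carries the pattern (GENCODE release 29, GRCh38, mitochondrial genome, minus strand), with the anticodon in capitals.
MT-TA: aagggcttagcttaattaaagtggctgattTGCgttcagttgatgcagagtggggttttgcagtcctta
MT-TN: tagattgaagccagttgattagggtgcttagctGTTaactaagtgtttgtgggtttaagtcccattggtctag
MT-TC: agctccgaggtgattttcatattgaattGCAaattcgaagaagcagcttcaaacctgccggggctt
MT-TY: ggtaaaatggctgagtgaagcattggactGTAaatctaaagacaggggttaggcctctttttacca
They occupy bases 5587 to 5655, 5657 to 5729, 5761 to 5826 and 5826 to 5891 and carry alanine, asparagine, cysteine and tyrosine. The last 2 share base 5826.

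In batch 1 MT-TN was 2247, 1864 and 1611 TPM in the RAC1-positive lines and 537, 604 and 454 TPM in the knockout lines (-1.84, SE 0.17, limma adjusted p = 0.071). In batch 2 the same lines gave 805, 475 and 922 TPM against 1990, 1905 and 1655 TPM (1.38). The knockout libraries were thus wholly below the others in batch 1 and wholly above them in batch 2, with the low side of each batch at 454 to 922 TPM and the high side at 1611 to 2247 TPM. MT-TC was 6646, 5866 and 4881 TPM against 1534, 2143 and 1273 TPM in batch 1 (-1.83) and differed by 1.46 in batch 2. MT-TA (-1.76 and 1.58) and MT-TY (-1.21 and 1.32) did likewise, as did MT-TE, elsewhere on the minus strand (-1.21 and 1.89), and MT-TI on the plus strand (-1.46 and 0.87). Of the 8 minus-strand tRNA genes 5 reversed without overlap, and of the 14 plus-strand ones 1. Over all 17508 genes kept, 39 reversed in this direction and 25 in the other. MT-TP, at 2137, 2010 and 2632 against 2596, 2206 and 2742 TPM, overlapped in both batches, and so in batch 1 did the 13 protein-coding genes of the mitochondrial genome (median 0.08; 0.0045 without sgNTC clone 2). The tRNA genes are 59 to 75 bases long, and the lowest value above 0 among them in sgNTC clone 2 was 71.0 TPM (MT-TQ). MT-TI (74.1 TPM) and MT-TE (148 TPM) were near that floor in sgNTC clone 2, so their values there may rest on very few reads. Without that library the batch 1 difference was -1.95 for MT-TN, -1.485 for MT-TI and -1.32 for MT-TE.

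**Figure D4:**
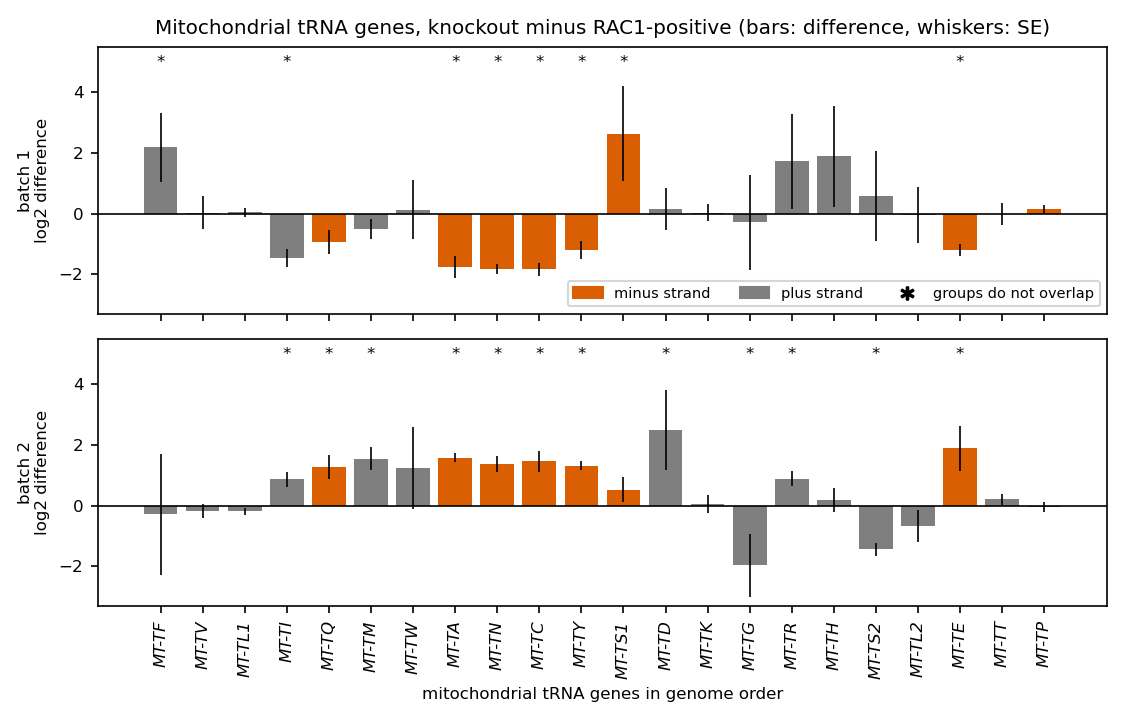
Difference between knockout and RAC1-positive lines on the log2(TPM + 1) scale (bars) with its SE (whiskers) for the 22 mitochondrial tRNA genes in genome order, batch 1 above and batch 2 below, orange for the minus strand. MT-TA, MT-TN, MT-TC, MT-TY and MT-TE are below 0 in batch 1 and above 0 in batch 2, each without overlap of the groups (asterisks).

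Few nuclear genes reversed in this way. Over all 17508 genes kept, 12.4% were wholly higher and 7.57% wholly lower in the knockout lines of batch 2. Of the 1339 genes wholly higher in the knockout lines of batch 1, 507 (37.9%) were wholly higher in batch 2 also, or 23.4% of batch 2's, and 25 wholly lower. Of the 1184 wholly lower, 264 (22.3%, or 19.9% of batch 2's) were wholly lower in batch 2 and 39 wholly higher. The 39 held 26 protein-coding genes and 6 mitochondrial tRNA genes. CASP8, the initiator caspase of death receptors, was 20.6, 22.8 and 21.9 TPM against 13.7, 16.4 and 10.8 TPM in batch 1 and 11.4, 10.0 and 10.7 TPM against 22.8, 24.3 and 22.6 TPM in batch 2. The RAC1-positive libraries of batch 1 were thus close in level to the knockout libraries of batch 2, as for MT-TN. RAB2B, a trafficking GTPase chosen after its values were seen, was 63.1, 61.6 and 72.2 against 59.9, 57.9 and 60.0 TPM in batch 1 and 39.7, 38.6 and 38.9 against 72.6, 70.7 and 68.5 TPM in batch 2. CEBPZOS was 57.5, 73.1 and 87.1 against 42.0, 39.97 and 40.5 TPM in batch 1 (-0.79) and differed by 0.65 in batch 2. CDC42 differed by -0.39 and 0.25, and SPC24, of the kinetochore, by -1.08 and 0.35.

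Whether a difference changed between the batches was tested on batch 1 minus batch 2 of each line. limma called 0 (0%) of the 17508 genes, with 777 (4.44%) at an unadjusted p under 0.05 and a smallest adjusted p of 0.298, so no gene is called particular to batch 1. The change was -3.22 for MT-TN (SE 0.34), -1.70 for CASP8, -0.99 for MCM4 and -0.64 for CDC42. Genes with a change above 0 included ATAD3A, a mitochondrial inner membrane protein (1.32), and the pseudogene ISCA1P4 (3.49), whose reads may be shared with its parent gene. When the 12 libraries were treated as separate samples, an alternative added after the data were seen, 5 genes passed: MT-TN (adjusted p = 0.0111), MT-TC, MT-TA, CASP8 (adjusted p = 0.0407) and AC006539.2. That fit counts each line as 2 independent samples. Of the 28 genes called in batch 2, 10 were apart in the same direction in batch 1. Over all genes kept, 7.65% were wholly higher and 6.76% wholly lower in batch 1. RAB2B (batch 2 limma adjusted p = 0.0208), CASP8 (0.0432) and AC006539.2 (0.0432) were called in batch 2 too, but were apart in the opposite direction in batch 1.

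**Figure D5:**
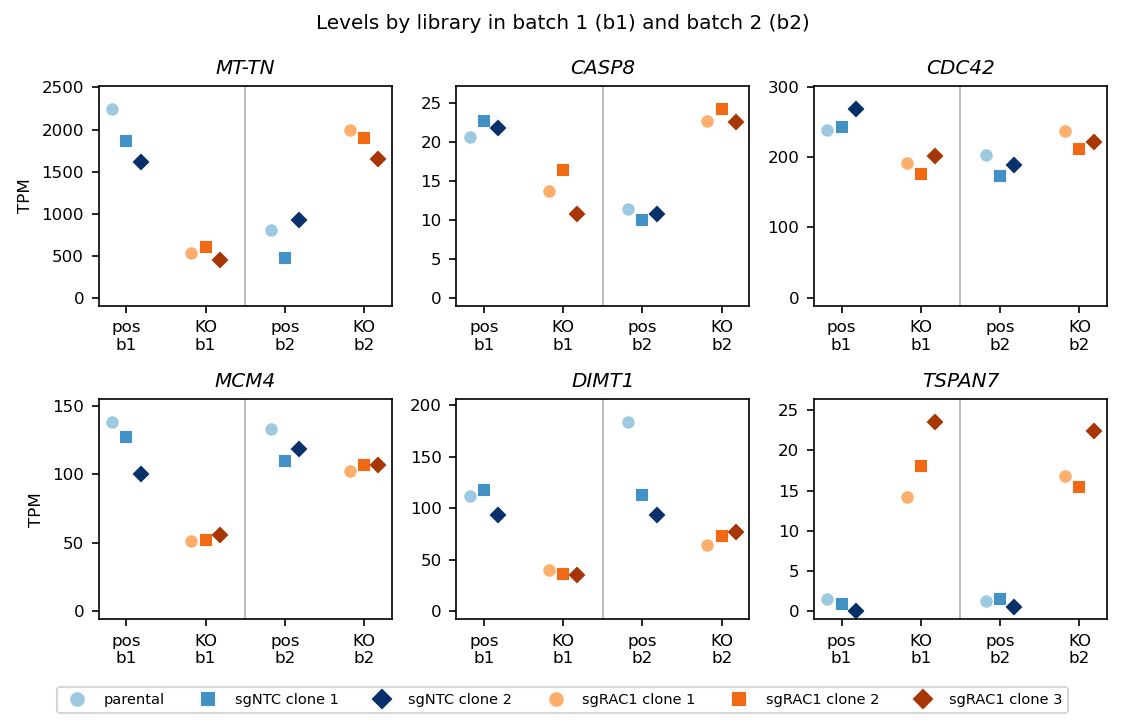
TPM of MT-TN, CASP8, CDC42, MCM4, DIMT1 and TSPAN7 in each library, by genotype (pos: RAC1-positive, KO: knockout) and batch (b1, b2), 1 symbol per line. MT-TN, CASP8 and CDC42 reverse between the batches, MCM4 is at 51.1 to 56.0 TPM in the batch 1 knockout lines only, and TSPAN7 is high in the knockout lines of both batches.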

How the data were processed

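RNA from DU145 lines was sequenced in 2 batches of 6 libraries, prepared from 160 ng of RNA with tagmentation of amplified cDNA, per the labels' protocols. The authors deposited 1 table of TPM values per gene and library. STAR 2.6.1d, bcl2fastq and DESeq2 with GRCh38 are named in the submitters' processing notes. The sources used here do not give how reads were counted (tool, strandedness, gene models). TPM keeps no read totals, so depth and counting error per library are not given. In each batch 1 library the values above 0 of 107-base U6 genes were whole multiples (within 0.01) of their most frequent value. That value in sgNTC clone 2 was 8.34 to 17.5 times those in the other batch 1 libraries. If it stands for 1 counted read, sgNTC clone 2 held fewer counted reads than the others. Reads from antisense or near-identical genes cannot be told apart.

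Genes with a mean of at least 1 TPM on either side of batch 1 were kept, and log2(TPM + 1) was tested with limma 3.58.1 in R 4.3.3 (variance trend, two-sided, Benjamini-Hochberg over all genes kept, threshold 0.05). Fold changes are on this scale and understate those of low genes. The same fit was run on batch 2 and on batch 1 minus batch 2 per line. The script was tested on simulated data. "Wholly" higher or lower, or without overlap, means that all 3 knockout values lie on one side of the other 3. List medians are over kept members and have no test. The labels call the libraries biological replicates without naming separate cultures, so p-values measure the spread between these lines.

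The comparison and the 38 gene lists were chosen with earlier results of these data known. Genes named are RAC1, RAC2, RAC3, CDC42, RHOG, RHOA, VAV2, VAV3 and EGFR; per direction the 12 with the smallest p whose groups do not overlap and whose higher group averages at least 5 TPM; up to 6 members of each list with the smallest p; per direction 6 genes for the change between batches; and 4 genes set apart by 1 library. MCM2, MCM6, PCNA, RAB2B, MT-RNR1, the mitochondrial tRNA genes and the genes around RAC1 were chosen after their values were seen. Alternatives were other pseudocounts (0.1 and 5), filters, scalings, no variance trend, all 12 libraries with line as a random block, and leaving out each library. Gene positions are from GENCODE release 29 and promoters from RefSeq (GRCh38.p14). Some items are not reported here.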

Additional observations from a re-analysis of the deposited data

Results flagged for a closer look

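Of the 25 and 39 genes that reversed without overlap between the batches, 13 are given here: those that the rule for named genes covers, with MT-TI, MT-TY and AC006539.2, which were chosen after their values were seen. For each the knockout libraries lay wholly on one side of the RAC1-positive libraries in batch 1 and wholly on the other side in batch 2. The value given is the batch 1 difference minus the batch 2 difference on the log2(TPM + 1) scale. In the test of that change over all genes none passed limma's adjusted threshold. The mitochondrial tRNA genes were MT-TA (-3.34), MT-TC (-3.3), MT-TN (-3.22), MT-TE (-3.10), MT-TY (-2.53) and MT-TI (-2.34). The other genes with values below 0 were RP11-294J22.7 (-2.37), CASP8 (-1.70), CEBPZOS (-1.45), SPC24 (-1.42) and CDC42 (-0.64). AC006539.2 (3.10) and NPIPA7 (1.36), a member of a family of near-identical copies, were above 0. The cause was not tested.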

How the results depend on the processing

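limma called no gene in batch 1 under 13 of the 15 alternatives run; 8 were called with 12 libraries and line as a random block (within-line correlation 0.0356), and 3 with protein-coding genes only, where RAC1's difference was -1.93 in both and passed. The count at an unadjusted p under 0.05 was 2144 in the 12-library fit and 993 to 1674 when 1 line was left out. Leaving out 1 line gave 3765 to 4891 genes without overlap, where fewer libraries have to lie apart, and RAC1 differences of -2.08 to -1.80 (adjusted p 0.152 to 0.703). Batch 2 had 22 to 41 calls under 6 alternatives and 0 with a pseudocount of 5. The change between batches had 5 calls with 12 libraries as separate samples and 0 under the other 9 alternatives. Differences near 0 turned sign when 1 line was left out: RHOG ranged from -0.024 to 0.339, VAV2 from -0.098 to 0.322 and EGFR from -0.052 to 0.417 (RHOG was also -0.00029 and VAV2 -0.042 without sgNTC clone 1). Of the list medians recomputed, 536 moved by less than the spread between lines and 34 by more. No paired analysis was possible because every library of batch 1 carries replicate number 1 in the labels, so nothing pairs a knockout line with a RAC1-positive line; lines were paired only with themselves across batches, in the test of change and the 12-library fit. TPM gives no read totals, and the coarse values in sgNTC clone 2 limit what can be seen for short and low genes.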

Other observations

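Some genes were set apart by a single library. RP11-159L8.2 was 279.9 TPM in sgRAC1 clone 3 and listed at 0 in the other 5 libraries of batch 1, and at 0 in that clone in batch 2. RNU6-1099P (95.6 TPM) and SNORD96B (64.7 TPM) were above 0 only in sgNTC clone 2 in batch 1, and RP11-330L19.1, at 82.2 to 141.5 TPM elsewhere in the batch, was listed at 0 only there.

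MT-RNR1, the small ribosomal RNA of the mitochondrion, was 5639, 4471 and 5693 TPM in the RAC1-positive lines and 9904, 7152 and 8388 TPM in the knockout lines of batch 1 (difference 0.68). It overlapped between the sides in batch 2 (0.36). MT-TM, MT-TQ and MT-TD, which overlapped in batch 1, were wholly higher in the knockout lines of batch 2, at differences of 1.56, 1.28 and 2.498.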
